A study of Mus musculus with 12 samples.

Results

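The solute carrier (SLC) superfamily comprises the membrane proteins that move amino acids, sugars, ions, metals, vitamins and metabolites across the plasma membrane and the membranes of organelles. Genes of this superfamily were selected from a ribosome-tagged transcriptome of mouse enteric glial cells (EGCs) by name alone, as the symbols made of Slc, a family number, the letter a and a member number. This rule used no measured value and took 212 of the 12975 genes in the counts table, from 46 families that were grouped into 13 transport classes by family number. SLC proteins work as exchangers, as cotransporters coupled to ion gradients, or as facilitators, and many amino acid carriers act only when paired with a heavy chain. In the nervous system, glial cells are known for SLC proteins that clear transmitters, take up glucose, and set the pH and potassium around neurons.

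The study asked how EGCs respond to intestinal manipulation, in which the gut is handled mechanically during surgery and its muscle layer becomes inflamed. All 6 mice carried the PLPCreERT2 and Rpl22HA alleles, in which a tamoxifen-induced Cre switches the ribosomal protein Rpl22 to a form with a haemagglutinin (HA) tag. Tamoxifen (100 µl at 15 mg/ml) was injected intraperitoneally 2 times in mice aged 10 to 12 weeks, which were sacrificed 3 to 4 weeks after the first injection, and the muscularis externa was taken from 3 naïve mice (T0) and from 3 other mice 3 h post-injury (T3). Each homogenate was split between an anti-HA antibody, which pulls down tagged ribosomes with their mRNA, and an isotype IgG, which shows what binds without the tag. This gave 4 groups of 3 libraries (HA T0, IgG T0, HA T3 and IgG T3), each library from 1 mouse. Tagging follows the activity of the promoter that drives Cre and not cell identity, and with no sham-operated group the manipulation cannot be told apart from the surgery around it.

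Values are unique molecular identifier (UMI) counts, in which 1 count is 1 captured mRNA end, so that CPM, the counts of a gene scaled to an equal total in every library, do not grow with gene length. Libraries held 88136 to 2870591 counts, and HA T0 and HA T3 libraries were deeper than the IgG libraries of the same time in all 6 mice. A count of 0 allowed 1.05 to 2.46 CPM in HA libraries but 12.1 to 34 CPM in IgG T3 libraries (3 counts of the total, counting error only). At T0 all 12 glial markers exceeded their IgG level (adjusted p under 0.05), and at T3 9 of 12 did. None was at 0 in an HA library, and their summed level was 15969 to 20621 CPM in HA against 1167 to 4175 CPM in IgG. Markers of interstitial cells of Cajal were also higher in HA at T0 (3 of 4 measured, 2741 to 3485 against 254 to 356 CPM), whereas all 10 smooth muscle markers were lower (17229 to 26193 against 53174 to 69305 CPM). In such bulk samples, fewer cells of a type and less RNA per cell cannot be told apart.

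SLC genes together took 0.964% to 1.34% of the counts of a library, and the 2 highest in HA T0 were mitochondrial carriers. In HA T0, 34 of the 212 genes had a mean of at least 100 CPM, 85 were under 10 CPM, and the 10 highest held 44.2% of the summed SLC level. Slc25a4, which exchanges ADP and ATP across the inner mitochondrial membrane, was highest in each group, with 1824, 1699 and 1887 CPM in HA T0, 2584, 2551 and 2205 CPM in IgG T0, 1092, 1204 and 1133 CPM in HA T3, and 1747, 1608 and 1614 CPM in IgG T3. Its IgG libraries were above the HA libraries at both times with no overlap, yet neither difference passed the test (log2 fold change -0.47 ± 0.18 SE, adjusted p = 0.0691 at T0; -0.44 ± 0.25, adjusted p = 0.221 at T3). Next in HA T0 came the phosphate carrier Slc25a3 (915 ± 84.1 CPM, SD, n = 3), the potassium-dependent sodium/calcium exchanger Slc24a3 (609 ± 161), Slc22a17, a receptor for lipocalin-bound iron (420 ± 55.9), and the mitochondrial glutathione carrier Slc25a39 (415 ± 35.4). Slc25a5, Slc25a23, the insulin-responsive glucose transporter Slc2a4, the haem transporter Slc48a1 and Slc38a10 completed the 10, at 256 to 349 CPM. From Slc22a17 downwards, neighbours in this order differed by less than the larger of their SDs.

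The comparison of HA with IgG in naïve mice asks which transcripts came down with tagged ribosomes. Of 156 SLC genes that passed the filter on low counts, 56 were called where 30.3% of all genes tested were. Higher in HA were 45 (28.8%, against 16% of all genes) and lower were 11 (7.05%, against 14.4%). The median log2 fold change was 0.50 against -0.02 over all genes. HA and IgG libraries did not overlap in 64 SLC genes higher in HA and in 17 lower, where 24.7% and 20.1% of all genes did so. In the fit with each mouse as a block, 51 were higher and 18 lower, and without HA T0 replicate 4 the lower count was 5. The 56 SLC genes left untested were scarce, and none exceeded a mean of 13.8 CPM in either group.

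The smallest p among SLC genes was that of Slc44a1. This choline transporter of the plasma and mitochondrial membranes (chr4:53440413-53622478, mm10) had 244, 262 and 260 CPM in HA T0 and 2.58, 10.3 and 11.6 CPM in IgG T0. The lowest HA library was thus far above the highest IgG library, and the log2 fold change was 4.73 ± 0.30 (adjusted p = 9.6e-08). Its relatives Slc44a2 (142, 146 and 124 CPM against 28.3, 27.4 and 35.7) and Slc44a5 (45.7, 40.8 and 44.6 against 12.9, 6.86 and 3.10) were likewise higher with no overlap. The log2 fold changes were 2.11 ± 0.24 (adjusted p = 1.8e-05) and 2.80 ± 0.41 (adjusted p = 0.00021). With the fatty acid transporter Slc27a1 (1.18 ± 0.37, adjusted p = 0.0256, lost without HA T0 replicate 1 or 2 or IgG T0 replicate 1 or 4, up to 0.133), 4 of the 6 lipid-class genes tested were higher and none lower. Of all genes, 16% were higher and 14.4% lower.

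Other genes with small p-values included carriers of amino acids, nucleotide sugars and organic ions. Slc22a17 had 405, 374 and 482 CPM in HA T0 against 61.8, 78.8 and 137 in IgG T0. The orphan Slc22a23 had 31.9, 35.2 and 48.4 against 5.15, 3.43 and 4.65. Neither overlapped between antibodies, and the log2 fold changes were 2.10 ± 0.26 (adjusted p = 4.7e-05) and 3.08 ± 0.39 (adjusted p = 5.8e-05). Of 21 amino acid carriers tested, 8 were higher (38.1%, against 16% of all genes), among them Slc43a2, which releases neutral amino acids (2.22 ± 0.24, adjusted p = 1.3e-05), Slc38a10 (1.61 ± 0.21, adjusted p = 5.9e-05) and Slc43a3, classed here by its family but known to carry purine bases (2.61 ± 0.34, adjusted p = 9.3e-05). Slc35a2, which brings UDP-galactose into the Golgi, had 73.3, 93.3 and 70.0 CPM against 12.9, 17.1 and 20.2 (2.13 ± 0.29, adjusted p = 9.0e-05). It overlaps Pqbp1 on the opposite strand. Among other genes named in this report, Slc48a1, Slc6a9 and Slc4a2 overlap Hdac7, B4galt2 and Fastk in the same way. Whether counting was stranded is not given in the sources used here, so reads of each pair cannot be told apart.

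**Figure D1:**
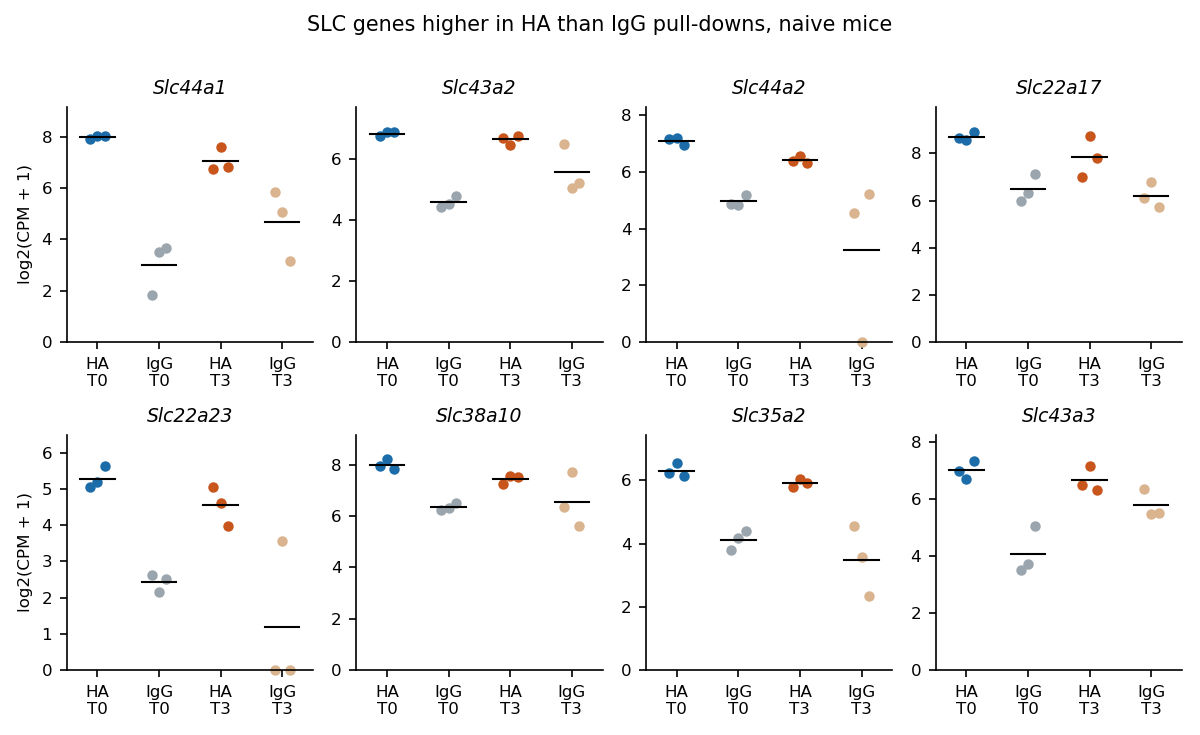
Level of the 8 SLC genes with the smallest p among those higher in HA T0 than IgG T0, as log2(CPM + 1) on the vertical axis of each panel, for the 4 groups; each dot is 1 library and the line is the mean of the 3 log values. In all 8 panels the 3 HA T0 libraries lie above the 3 IgG T0 libraries, from Slc44a1 at 244 to 262 CPM against 2.58 to 11.6 CPM to Slc38a10 at 228 to 294 against 74.7 to 90.7 CPM.

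Genes known from astrocytes were not uniformly enriched. Of the glial and astrocyte list, 12 members were in the table and 6 were tested at T0, of which 3 were higher in HA (16% of all genes were). The glucose transporter Slc2a1 had 109, 119 and 93.4 CPM against 36.1, 30.9 and 27.1 (1.78 ± 0.25, adjusted p = 0.00013), and the sodium bicarbonate cotransporter Slc4a4 had 54.1, 40.8 and 62 against 30.9, 25.7 and 18.6 (1.11 ± 0.30, adjusted p = 0.0119; adjusted p = 0.072 without IgG T0 replicate 4). The citrate transporter Slc13a5 had 9.98, 13.4 and 15.7 CPM in HA T0 and 0, 0 and 1.55 in IgG T0, a ratio of 14.8 with a 95% counting interval of 3.98 to 124 (exact binomial, 95 against 2 counts; adjusted p = 0.0014). Of the defining astrocyte glutamate transporters, Slc1a2 was near the floor, at 0.559 to 2.09 CPM in HA T0. Slc1a3 was scarce but above the floor, at 4.47 to 6.91 CPM in HA T0. Neither was tested, so their enrichment is not known. The glycine transporter Slc6a9 (76.9 ± 20.7 CPM in HA T0, 50.5 ± 11.2 in IgG T0) and the chloride importer Slc12a2 (198 ± 32.4 and 140 ± 73.2) did not pass the test. Slc12a2 did pass when mice were blocked (0.65, adjusted p = 0.0276 against 0.396 unblocked), as did Slc18a2 (0.86, adjusted p = 0.0168 against 0.134) and Slc5a1 (-1.19, adjusted p = 0.00258 against 0.491).

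The 11 genes lower in HA came from 6 classes, with 3 amino acid carriers (Slc1a1, Slc7a14 and Slc43a1), 2 of sugars (Slc2a13 and Slc37a1), 2 of metals, 2 of transmitters, 1 of ions and 1 of the acid-base class. Leaving out any 1 library ended the call of Slc1a1 (adjusted p 0.0522 to 0.158). Slc2a13 kept its call only without HA T0 replicate 1 (others up to 0.112). Slc7a14 lost its call without replicate 1 or 4 of either antibody (up to 0.0723). Slc37a1 lost its call without HA T0 replicate 1 or 4 or IgG T0 replicate 2 or 4 (up to 0.158). The sodium/calcium exchanger Slc8a1 of muscle had 9.60, 3.91 and 3.14 CPM in HA T0 against 95.3, 29.1 and 27.1 in IgG T0 (-3.06 ± 0.63, adjusted p = 0.0058), and the bicarbonate cotransporter Slc4a7 had 6.14, 3.35 and 2.44 against 41.2, 46.3 and 18.6 (-3.07 ± 0.49, adjusted p = 0.00036). The zinc transporters Slc39a8 and Slc30a4 were lower by 1.55 ± 0.35 (adjusted p = 0.0039) and 1.78 ± 0.45 (adjusted p = 0.0089) on the log2 scale, each with no overlap, as was the neutral amino acid carrier Slc43a1 by 2.10 ± 0.48 (adjusted p = 0.0048). Of 5 neuronal SLC genes tested, the vesicular acetylcholine transporter Slc18a3 (-1.19 ± 0.36, adjusted p = 0.0232) and the vesicular amino acid carrier Slc6a17 (-0.94 ± 0.32, adjusted p = 0.0369) were lower and the neuronal calcium exchanger Slc8a2 was higher (1.47 ± 0.30, adjusted p = 0.0024). The call of Slc18a3 was lost without any 1 of 4 libraries (HA T0 replicates 1 and 4, IgG T0 replicates 2 and 4, adjusted p up to 0.113), and that of Slc6a17 without replicate 2 or 4 of either antibody (up to 0.224). Slc18a3 also lies within Chat on the same strand. The choline uptake gene Slc5a7 had 6.53, 0.559 and 0.348 CPM in HA T0 against 129, 20.6 and 27.9 in IgG T0, with mouse 1 highest under both antibodies. It passed only when mice were blocked (-4.72, adjusted p = 3.5e-09, against 0.0551). Of 11 neuronal markers tested, 7 were lower in HA too, and all 12 summed to 1176 to 1382 CPM in HA T0 and 1574 to 3547 CPM in IgG T0. Their part in these values was not tested.

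The comparison of HA T3 with HA T0 asks which tagged transcripts changed within 3 h of injury. Of 144 SLC genes tested, 54 were called where 33.8% of all genes were. Higher at T3 were 19 (13.2%, against 18.7% of all genes) and lower were 35 (24.3%, against 15.1%). The median log2 fold change was -0.26 against -0.02 over all genes. The groups did not overlap in 18 SLC genes higher at T3 and in 57 lower (15.6% and 35.2% of all genes). Scaled by library totals, 15 were higher and 54 lower, as the median of all genes moved to -0.29. CPM are scaled by library totals too, so CPM values and statements of no overlap between these groups carry this shift. The lower count was 21 without HA T3 replicate 4 and 23 without HA T0 replicate 2. Markers of several other cell types were lower in the same libraries, and neuronal ones were not. Mesothelial markers summed to 484 to 547 CPM at T0 and 53.5 to 56.1 at T3 (6 of 6 tested lower), and fibroblast markers to 1057 to 1392 and 312 to 546 (5 of 7). Markers of interstitial cells of Cajal summed to 2741 to 3485 and 1216 to 1588 CPM (3 of 4 lower). Of 11 neuronal markers tested, 4 were higher and none lower, and all 12 summed to 1176 to 1382 and 1296 to 2245 CPM. Of 3 endothelial markers tested, 1 was higher. The glial sum was 16575 to 20621 CPM at T0 and 15969 to 20312 at T3, most of it Apoe (means of 13820 and 12940 CPM), while S100b, Gfap (118 to 1715 CPM) and Sox2 were higher at T3 and Gpr37l1 lower (1723 to 785 CPM). Their part in the SLC changes was not tested.

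The genes that rose most included carriers of steroid sulphates, urea, adenine nucleotides and magnesium. Slc10a6, which takes up sulphated steroids (chr5:103605711-103629403), went from 9.21, 12.3 and 5.92 CPM to 126, 122 and 80.2 CPM, a log2 fold change of 3.88 ± 0.28 (adjusted p = 1.2e-09). The urea transporter Slc14a1 went from 1.92, 3.35 and 1.74 CPM to 13.1, 20.7 and 23.4 CPM (3.33 ± 0.41, adjusted p = 3.0e-06). All T3 libraries were above all T0 libraries for both, and Slc14a1 rested on 16 counts over the T0 libraries. Slc25a25, a calcium-sensitive mitochondrial carrier of ATP-magnesium and phosphate (chr2:32414487-32451445), went from 19.6, 24.6 and 18.1 CPM to 69.6, 82.3 and 75.5 CPM (2.15 ± 0.22, adjusted p = 2.5e-07). Slc41a1, which exports magnesium (chr1:131827493-131848865), went from 37.2, 47.5 and 50.5 CPM to 154, 165 and 153 CPM (2.07 ± 0.18, adjusted p = 2.6e-08). Neither of these showed overlap, and all 4 calls held in all 13 alternatives.

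**Figure D2:**
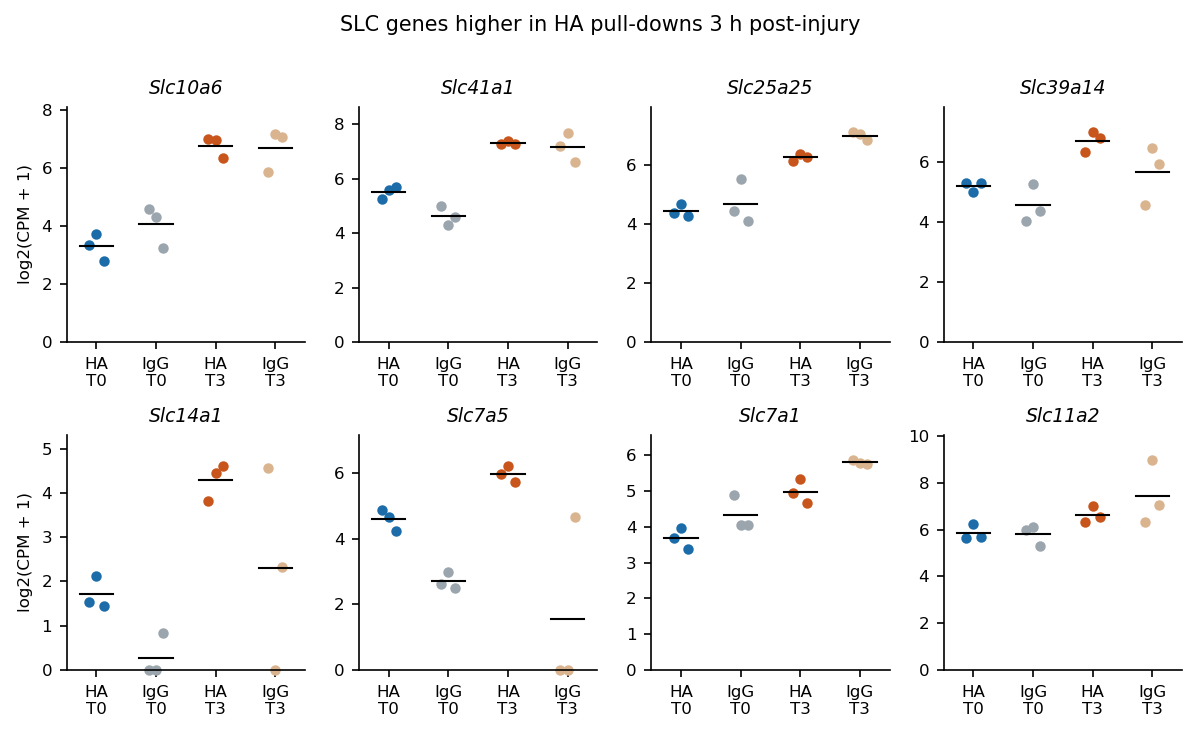
Level of the 8 SLC genes with the smallest p among those higher in HA T3 than HA T0, as log2(CPM + 1) on the vertical axis, for the 4 groups; each dot is 1 library and the line is the mean of the 3 log values. The 3 HA T3 libraries lie above the 3 HA T0 libraries in all 8 panels, and for Slc10a6 the IgG libraries also moved, from 8.53 to 23.2 CPM at T0 to 56.7 to 141 CPM at T3.

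Start-site regions are printed here for the 3 risers with the smallest p, which have entries in the RefSeq promoter table (GRCm38.p6). Shared regulation of these genes was not tested. Each region runs from 250 bases before to 50 after a start site, 5′ to 3′ on the strand of the gene. Slc10a6 lies at chr5:103629354-103629653 (minus strand), Slc41a1 at chr1:131827762-131828061 (plus strand), and Slc25a25, on the minus strand of chromosome 2, has 3 listed start sites, of which site 1 (chr2:32451421-32451720) and site 3 (chr2:32424017-32424316) are given. Capitals mark matches, on either strand, to the cyclic AMP response element TGACGTCA, the AP-1 site TGANTCA, the amino acid response core TGATGNAA, the antioxidant response core TGACNNNGC or the E-box CACGTG.
Slc10a6: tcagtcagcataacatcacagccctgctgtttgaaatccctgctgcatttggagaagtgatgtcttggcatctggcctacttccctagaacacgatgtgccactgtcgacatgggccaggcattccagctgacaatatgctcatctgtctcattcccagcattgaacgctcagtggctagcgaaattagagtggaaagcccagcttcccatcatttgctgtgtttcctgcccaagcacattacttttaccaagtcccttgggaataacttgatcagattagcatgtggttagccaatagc
Slc41a1: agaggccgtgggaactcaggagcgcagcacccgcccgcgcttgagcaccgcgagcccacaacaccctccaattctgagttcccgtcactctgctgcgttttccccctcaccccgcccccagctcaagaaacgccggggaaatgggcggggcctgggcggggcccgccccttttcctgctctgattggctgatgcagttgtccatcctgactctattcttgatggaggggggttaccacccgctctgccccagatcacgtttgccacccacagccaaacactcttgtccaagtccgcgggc
Slc25a25 start site 1: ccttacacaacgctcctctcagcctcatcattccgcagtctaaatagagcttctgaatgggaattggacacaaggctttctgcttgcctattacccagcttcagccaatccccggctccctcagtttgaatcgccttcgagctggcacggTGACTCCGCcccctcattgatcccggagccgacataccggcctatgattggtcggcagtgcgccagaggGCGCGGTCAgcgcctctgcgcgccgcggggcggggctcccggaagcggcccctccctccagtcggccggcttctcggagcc
Slc25a25 start site 3: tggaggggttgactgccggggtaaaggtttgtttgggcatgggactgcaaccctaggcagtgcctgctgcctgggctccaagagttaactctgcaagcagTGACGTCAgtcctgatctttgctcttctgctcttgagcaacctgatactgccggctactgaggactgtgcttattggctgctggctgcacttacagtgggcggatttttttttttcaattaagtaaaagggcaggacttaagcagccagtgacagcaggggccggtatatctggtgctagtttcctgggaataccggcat
Slc25a25 held 2 matches to the antioxidant core at site 1, a pattern found in 12.4% of 32851 promoters, and 1 cyclic AMP element at site 3, a pattern found in 1.79%. No matches shared a base. Slc25a25 site 2, Slc10a6 and Slc41a1 held none of the 5 patterns in these windows. Over the 208 start sites of the 160 SLC genes matched, the shares were 18.3% for the antioxidant core, 13.9% for the E-box (7.15% of all promoters), 5.29% for AP-1 (7.81%), 2.88% for the amino acid core (3.97%) and 1.92% for the cyclic AMP element. Slc39a14, Slc14a1 and Slc7a5 are named only.

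Metal carriers moved in both directions, with 5 of 22 tested higher (22.7%, against 18.7% of all genes) and 4 lower (18.2%, against 15.1%), shares near those of all genes. Slc39a14, which imports zinc and iron, went from 38.4, 30.7 and 38.3 CPM to 79.4, 125 and 109 CPM (1.81 ± 0.21, adjusted p = 1.7e-06), and the iron importer Slc11a2 from 48.8, 75.4 and 50.2 to 78.6, 129 and 91.9 (1.06 ± 0.23, adjusted p = 0.0013). Both had all T3 libraries above all T0 libraries. The zinc importer Slc39a1 also rose (0.86 ± 0.19, adjusted p = 0.0016), while the copper importer Slc31a1, at 0.67 ± 0.26 (adjusted p = 0.0487), passed in none of the 13 alternatives. Slc30a6, which loads zinc into the Golgi, fell from 20.3, 19 and 22.6 CPM to 6.55, 4.68 and 5.45 CPM (-1.63 ± 0.34, adjusted p = 9.2e-04). The zinc importer Slc39a3 (-0.93 ± 0.21), the endosomal copper protein Slc31a2 (-0.99 ± 0.23) and Slc48a1 (-0.60 ± 0.17, adjusted p = 0.0116, or 0.0516 without HA T0 replicate 2) also fell. The zinc exporter Slc30a1 was 27.6 ± 7.58 CPM at T0 and 23.7 ± 7.03 at T3 (0.03 ± 0.29, adjusted p = 0.942). In the same libraries the metal-binding proteins Mt1 and Mt2 rose from 660 and 295 CPM on average to 20614 and 26468 CPM (5.23 ± 0.21, adjusted p = 2.6e-13, and 6.74 ± 0.28, adjusted p = 8.2e-13), and both rose in IgG libraries as well (5.08 ± 0.35 and 6.87 ± 0.43). Slc11a2 went from 56.4 ± 15.6 to 237 ± 229 CPM (SD) in IgG libraries without passing (2.02 ± 0.54, adjusted p = 0.0517). Nor did Slc39a14 pass there (1.25 ± 0.51, adjusted p = 0.181).

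Of 18 amino acid carriers tested, 4 were higher (22.2%, against 18.7% of all genes) and 3 lower (16.7%, against 15.1%). Of the 7 genes measured from a list of SLC targets of the amino acid response, 4 rose in HA and none fell, with a median log2 fold change of 0.80. In IgG libraries 5 genes of this list were tested with time. All 5 had a positive log2 fold change, with a median of 1.04, and none passed. In HA libraries Slc7a5, which imports large neutral amino acids, went from 28.4, 24 and 17.8 CPM to 61.4, 72.9 and 51.4 CPM (1.67 ± 0.24, adjusted p = 2.6e-05). Its heavy chain Slc3a2 went from 128, 158 and 136 to 162, 252 and 206 CPM (0.83 ± 0.19, adjusted p = 0.0026). The cationic carrier Slc7a1 went from 11.9, 14.5 and 9.41 CPM to 29.5, 39.5 and 24.1 CPM (1.66 ± 0.29, adjusted p = 0.0002), and the glutamine carrier Slc1a5 from 58.4, 72.6 and 58.9 to 99.0, 100 and 75.5 CPM (0.80 ± 0.19, adjusted p = 0.0034). In each of these 4 the T3 libraries were all above the T0 libraries. Slc38a2 (0.43 ± 0.18, adjusted p = 0.0642), Slc1a4 (0.16 ± 0.24, adjusted p = 0.634) and Slc6a9 (-0.19 ± 0.21, adjusted p = 0.511) did not pass, and Slc1a4 was at -0.10 when scaled by library totals. Other glutamine carriers fell. The sodium-coupled Slc38a1 went from 91.8, 107 and 117 CPM to 37.6, 47.5 and 35.8 CPM (-1.11 ± 0.20, adjusted p = 0.00025). The lysosomal Slc38a7 went from 19.6, 24.6 and 31 to 7.37, 9.36 and 7.79 CPM (-1.33 ± 0.31, adjusted p = 0.0027). Slc7a7, which exports cationic amino acids, was called lower (-0.77, adjusted p = 0.021), a call lost without any of 5 libraries (all but HA T0 replicate 4, adjusted p 0.0525 to 0.0804). The amino acid synthesis genes Asns and Psat1 were at -0.42 ± 0.28 and -0.47 ± 0.31 without passing, while Phgdh rose (1.06 ± 0.24, adjusted p = 0.0023). The polyamine enzyme Odc1 rose by 3.06 ± 0.19 (adjusted p = 1.0e-10), and in IgG by 2.05 ± 0.40 (adjusted p = 0.0059).

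Vitamin and nucleoside carriers held 7 of the 35 lower calls and no higher one. Of 6 vitamin-family genes tested, 4 were lower and none higher (15.1% and 18.7% of all genes), with a median of -1.04. The proton-coupled folate transporter Slc46a1 fell from 47.2, 52.5 and 41.1 CPM to 18, 16 and 13.2 CPM (-1.31 ± 0.25, adjusted p = 0.00054), and the reduced folate carrier Slc19a1 from 42.2, 36.3 and 51.9 to 9.82, 18.1 and 12.5 CPM (-1.41 ± 0.28, adjusted p = 0.0006). The groups did not overlap for either, and Slc19a1 overlaps Col18a1 on the opposite strand. The riboflavin transporter Slc52a2 (-0.86 ± 0.28, adjusted p = 0.025) and the lysosomal Slc46a3 (-1.23 ± 0.41, adjusted p = 0.0267) were called in 7 of 13 alternatives each. Leaving out HA T0 replicate 1 or 2 ended both calls, as did HA T3 replicate 3 for Slc52a2 and HA T3 replicate 1 or 4 for Slc46a3 (adjusted p up to 0.132). Slc5a6, which carries biotin and pantothenate but sits in the sugar class by family, went the same way (-1.20 ± 0.40, adjusted p = 0.0263, lost without HA T0 replicate 1 or HA T3 replicate 3 or 4, up to 0.134). Of 4 nucleoside carriers tested, 3 were lower. The equilibrative Slc29a1 went from 241, 253 and 179 CPM to 123, 106 and 104 CPM (-0.76 ± 0.19, adjusted p = 0.0047) and the lysosomal Slc29a3 from 34.9, 31.8 and 44.2 to 12.3, 13.4 and 15.6 CPM (-1.16 ± 0.27, adjusted p = 0.0023). Slc29a2 was also lower (-1.04 ± 0.32, adjusted p = 0.0158, or 0.0906 without HA T3 replicate 1). None of the 3 overlapped between times.

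**Figure D3:**
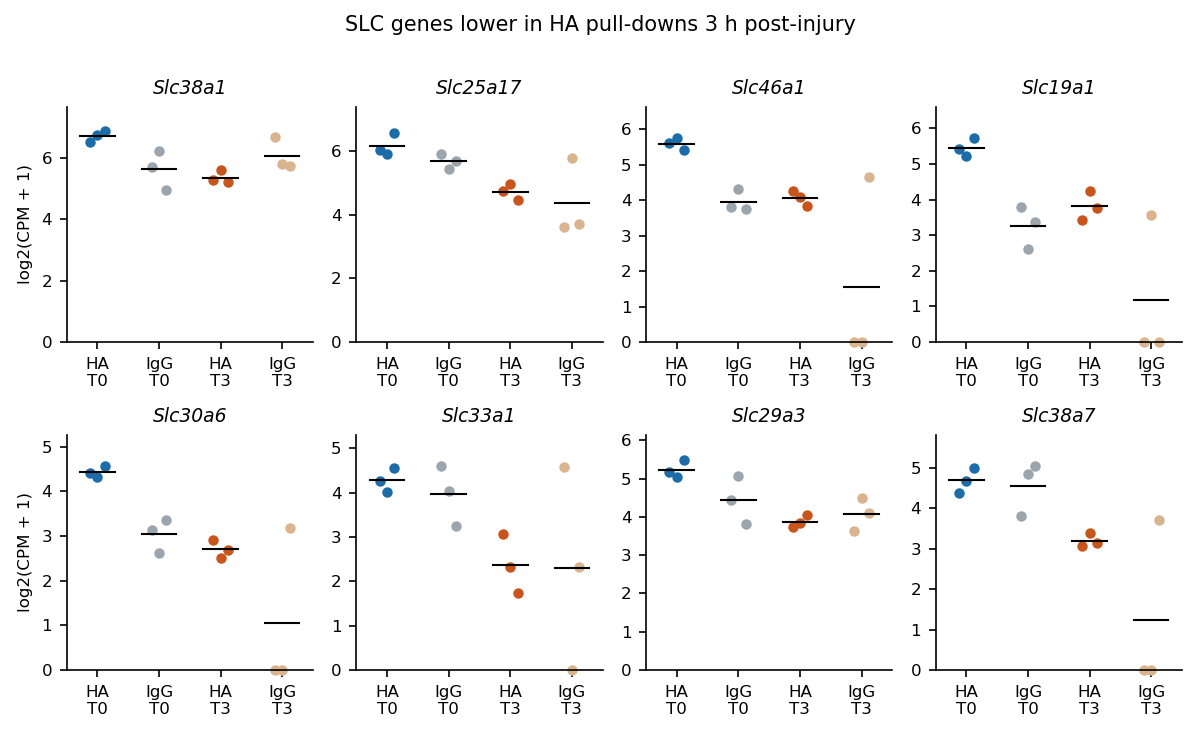
Level of the 8 SLC genes with the smallest p among those lower in HA T3 than HA T0, as log2(CPM + 1) on the vertical axis, for the 4 groups; each dot is 1 library and the line is the mean of the 3 log values. In all 8 panels the HA T3 libraries lie below the HA T0 libraries, as for Slc38a1 at 35.8 to 47.5 against 91.8 to 117 CPM, while for Slc19a1, Slc30a6 and Slc33a1 each IgG T3 library holds 0 to 2 counts.

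Sugar carriers by family were lower in 6 of 15 tested (40%, against 15.1% of all genes) and higher in 1 (6.67%, against 18.7%). The 6 include Slc5a6, the biotin and pantothenate carrier described above, and Slc37a3 and Slc37a4. The call of Slc37a3 was lost without HA T0 replicate 2 or HA T3 replicate 1 or 4 (adjusted p up to 0.112). That of Slc37a4 was lost without HA T3 replicate 4 (0.0709). Slc2a1 rose from 109, 119 and 93.4 CPM to 113, 188 and 164 CPM (0.80 ± 0.21, adjusted p = 0.0051), with 1 T3 library inside the range of T0. The sugar exporter Slc50a1 fell from 99.1, 82.1 and 89.5 CPM to 45.0, 40.1 and 42.8 CPM (-0.82 ± 0.20, adjusted p = 0.0032) and the endosomal Slc2a8 from 75.6, 75.4 and 72.1 to 42.6, 31.4 and 35 CPM (-0.77 ± 0.21, adjusted p = 0.0068), neither with overlap. Slc2a4 fell by 0.60 ± 0.21 on the log2 scale (adjusted p = 0.0357), a call lost without HA T0 replicate 2 (0.243) or any HA T3 replicate. Beside them the glycolytic genes Pfkfb3 (2.42 ± 0.23, adjusted p = 7.0e-08) and Ldha (0.67 ± 0.17, adjusted p = 0.0039) rose. In IgG libraries Pfkfb3 rose too (2.37 ± 0.41, adjusted p = 0.0024), from 28.1 to 157 CPM on average against 19.4 to 86.5 CPM in HA, and Ldha did not pass (0.09 ± 0.28, adjusted p = 0.89).

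Of 27 carriers of the mitochondrial family tested, 4 rose (14.8%, against 18.7% of all genes) and 5 fell (18.5%, against 15.1%), again near the shares of all genes, and the median was -0.45. Slc25a25 aside, the iron importer Slc25a28 (0.65 ± 0.18, adjusted p = 0.0083), the pyrimidine nucleotide carrier Slc25a33 (0.77 ± 0.21, adjusted p = 0.0085, or 0.059 and 0.0539 without HA T0 replicate 1 and HA T3 replicate 4) and the NAD carrier Slc25a51 (0.76 ± 0.19, adjusted p = 0.0045) rose. Slc25a23, which like Slc25a25 carries ATP-magnesium, moved the opposite way, from 308, 400 and 314 CPM to 142, 177 and 135 CPM (-0.90 ± 0.19, adjusted p = 8.7e-04). The peroxisomal Slc25a17 fell from 64.5, 59.8 and 95.1 CPM to 26.2, 30.1 and 21 CPM (-1.23 ± 0.24, adjusted p = 0.00045), again with no overlap. Slc25a4 and Slc25a3 had log2 fold changes of -0.39 ± 0.16 and -0.09 ± 0.16 (adjusted p = 0.068 and 0.69).

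Among remaining classes, the vesicular monoamine transporter Slc18a2 rose from 80.6, 52.5 and 40.8 CPM to 147, 92.3 and 109 CPM (1.25 ± 0.26, adjusted p = 0.002) and the potassium chloride cotransporter Slc12a4 from 94.4, 132 and 80.1 to 175, 156 and 146 CPM (0.90 ± 0.20, adjusted p = 0.0018), both without overlap. Slc33a1, which brings acetyl-CoA into the endoplasmic reticulum, fell from 18, 15.1 and 22.6 CPM to 7.37, 4.01 and 2.34 CPM (-1.77 ± 0.39, adjusted p = 0.0017). Slc24a3 fell from 529, 794 and 504 CPM to 307, 322 and 294 CPM (-0.72 ± 0.19, adjusted p = 0.0062, or 0.0526 without HA T0 replicate 2). Slc44a1 fell from 244, 262 and 260 to 107, 192 and 111 CPM (-0.63 ± 0.21, adjusted p = 0.0256, lost without HA T0 replicate 2 or HA T3 replicate 1 or 4, up to 0.157). The T3 libraries of all 3 lay below those of T0. In the acid-base class, 1 of 9 tested was lower, Slc26a11 (-1.39 ± 0.40, adjusted p = 0.0117, or 0.0692 and 0.0502 without HA T3 replicates 1 and 4), and the anion exchanger Slc4a2 was at 0.49 ± 0.21 (adjusted p = 0.0744).

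**Figure D4:**
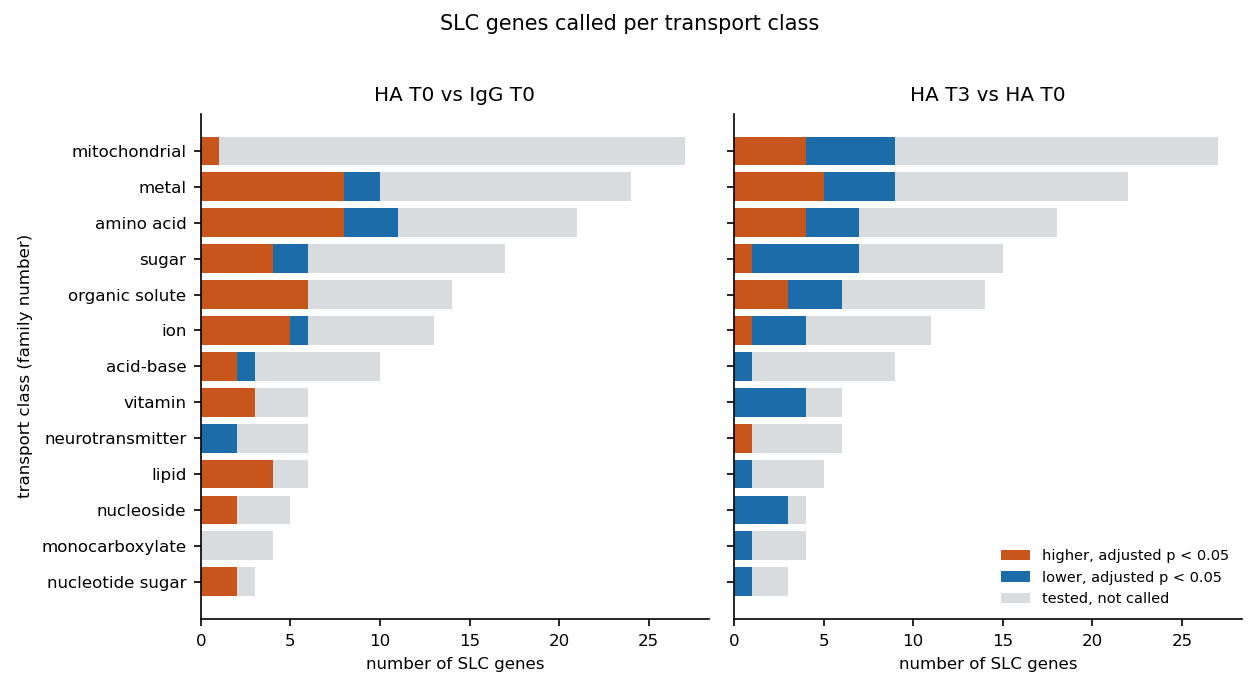
Number of SLC genes tested in each transport class (bar length), split into higher, lower and not called at an adjusted p of 0.05, for HA T0 against IgG T0 (left) and HA T3 against HA T0 (right); both comparisons use the HA T0 libraries. Vitamin carriers show 3 higher of 6 on the left and 4 lower of 6 on the right, and mitochondrial carriers 1 called of 27 on the left and 9 of 27 on the right.

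IgG libraries carry what the isotype antibody brought down from the same homogenate. The change with time in them asks whether a riser also rose there. Of 64 SLC genes tested, 6 were called where 5.46% of all genes were. All 6 were higher at T3 (9.38%, against 4.43% of all genes) and none lower (1.03%). Slc41a1 went from 30.9, 18.9 and 23.3 CPM to 147, 206 and 96.6 CPM (2.54 ± 0.41, adjusted p = 0.0016), and Slc10a6 from 23.2, 18.9 and 8.53 to 56.7, 141 and 133 CPM (2.87 ± 0.50, adjusted p = 0.0029, or 0.0584 without IgG T3 replicate 4). Slc25a25 went from 20.6, 44.6 and 16.3 CPM to 136, 130 and 113 CPM (2.22 ± 0.44, adjusted p = 0.0067, or 0.0528 and 0.0592 without IgG T3 and IgG T0 replicate 4). All IgG T3 libraries were above all IgG T0 libraries for these. The phosphate importer Slc20a1 (17.4 ± 3.47 to 67.8 ± 21.1 CPM; 2.00 ± 0.45, adjusted p = 0.018) and Slc12a4 (1.62 ± 0.42, adjusted p = 0.0371) lost their calls without IgG T0 or IgG T3 replicate 4 (adjusted p up to 0.191). Slc20a1 also lost it without IgG T0 replicate 2, and Slc12a4 without IgG T0 replicate 1 or IgG T3 replicate 3. Without IgG T3 replicate 4, 1 SLC gene was called, and without IgG T0 replicate 4, 2 were.

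**Figure D5:**
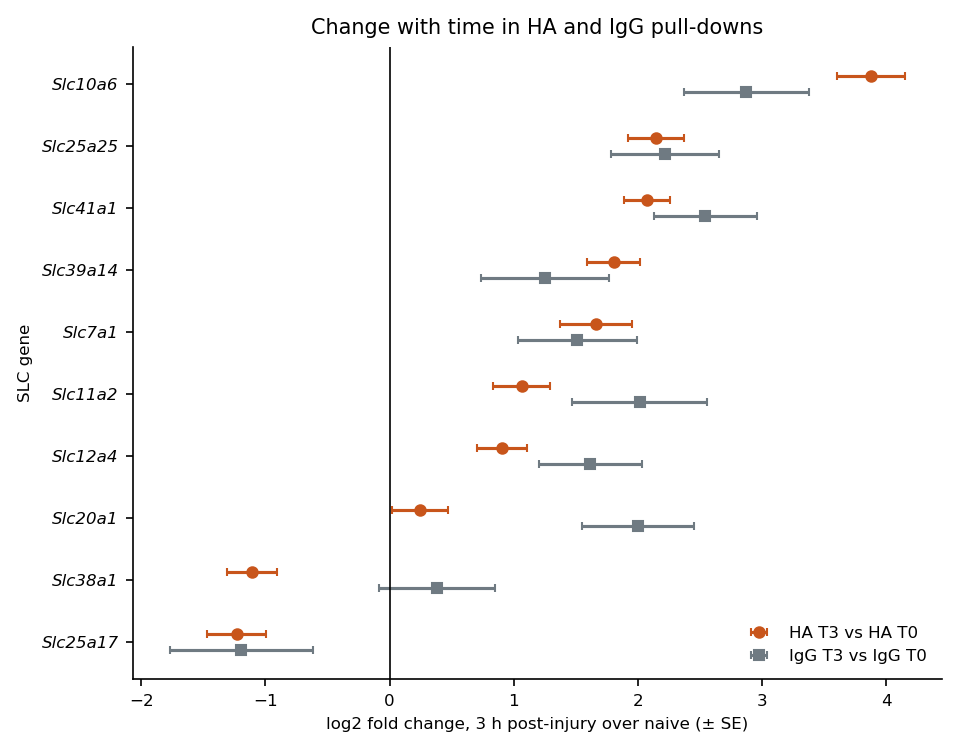
Log2 fold change from naïve to 3 h post-injury (horizontal axis, ± SE) in HA libraries (circles) and IgG libraries (squares) for 10 SLC genes (rows): 5 of those called in IgG, and the strongest HA risers and fallers that were tested in both. Slc25a25 is at 2.15 in HA and 2.22 in IgG, whereas Slc20a1 is at 0.25 in HA and 2.00 in IgG.

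Whether a gene changed with time to a different extent in the 2 antibodies was tested as an interaction (edgeR), which none of 162 SLC genes passed. Of all genes 0.33% passed, 0.301% with the more positive log2 fold change in HA and 0.0291% with the more positive in IgG, and 15 SLC genes had an unadjusted p under 0.05. The smallest p was that of Slc20a1 (-1.70 ± 0.48, adjusted p = 0.154), and DESeq2 made 1 call. For Slc10a6, Slc41a1 and Slc25a25 the differences were 1.00 ± 0.57, -0.38 ± 0.40 and -0.00 ± 0.70. IgG T3 libraries held 930 to 2473 SLC counts each, which limits the precision of these differences.

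At T3, 14 of 100 SLC genes tested differed between antibodies, where 21.9% of all genes did. HA exceeded IgG in 11 (11%, against 11.8% of all genes) and was lower in 3 (3%, against 10.2%), with median log2 fold changes of 0.05 and 0.02. These counts rested on shallow libraries: the total of 14 calls was 6 without IgG T3 replicate 4, 25 without IgG T3 replicate 3, 9 without HA T3 replicate 3 and 7 without HA T3 replicate 4. The smallest p among genes higher in HA was that of Slc44a1, at 107, 192 and 111 CPM in HA against 56.7, 32.6 and 8.05 in IgG (2.56 ± 0.52, adjusted p = 0.0017). Slc44a2 was at 83.5, 94.3 and 79.4 against 22.7, 0 and 36.2 (1.85 ± 0.49, adjusted p = 0.0101), neither overlapping. Slc44a5 had 40.9, 21.4 and 23.4 CPM in HA and no count in IgG, at least 4.00-fold higher against a floor of 3 counts over the IgG group (adjusted p = 0.0067, or 0.0538 without IgG T3 replicate 4). Slc7a5 had 61.4, 72.9 and 51.4 CPM against 0, 0 and 24.1 (2.25 ± 0.61, adjusted p = 0.0123). The HA libraries were above all IgG libraries for each of these. For Slc44a5, though, a count of 0 allowed 34 and 32.6 CPM in IgG T3 replicates 1 and 3. Its HA libraries at 21.4 and 23.4 CPM lay under those values, so only the bound over the IgG group holds for it.

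Slc22a17 (1.96 ± 0.46, adjusted p = 0.006), Slc35a2 (2.70 ± 0.60, adjusted p = 0.0033), Slc2a1 (1.33 ± 0.36, adjusted p = 0.0133), Slc35a4 (1.70 ± 0.49, adjusted p = 0.017) and Slc18a2 (1.31 ± 0.37, adjusted p = 0.0163) were also higher in HA at T3, each losing its call without IgG T3 replicate 4 (adjusted p of 0.0542 to 0.125). Slc2a1 and Slc35a4 also lost it without HA T3 replicate 3 or 4, and Slc18a2 without HA T3 replicate 1 or 4 (adjusted p up to 0.0712). Slc22a23, with 93 HA counts and 1 IgG count, had a ratio of 9.96 with a counting interval of 1.74 to 398 (adjusted p = 0.0346, or 0.0675 and 0.241 without IgG T3 replicates 1 and 4). Slc43a2 (1.14 ± 0.39, adjusted p = 0.0437) kept its call only without IgG T3 replicate 1, of the 6 libraries left out in turn (others up to 0.199). With mice as blocks, 4 more genes passed. Slc3a2 (1.09, adjusted p = 0.0151), Slc38a10 (0.96, adjusted p = 0.0449) and Slc25a51 (1.31, adjusted p = 0.0486) were higher in HA, and Slc11a2 was lower (-0.89, adjusted p = 0.0469). Lower in HA were Slc24a3, at 307, 322 and 294 CPM against 794, 848 and 507 (-1.09 ± 0.26, adjusted p = 0.0053), and the intestinal glucose importer Slc5a1, at 4.91, 10.0 and 22.6 against 56.7, 65.2 and 129 (-2.81 ± 0.51, adjusted p = 7.5e-04, or 0.0819 without IgG T3 replicate 4). Slc2a4 was lower too (-1.08 ± 0.33, adjusted p = 0.026), a call kept only without IgG T3 replicate 1 of the 6 libraries (others up to 0.208). Slc24a3 and Slc5a1 did not overlap. Smooth muscle markers summed to 13655 to 15908 CPM in HA T3 and 43370 to 69431 CPM in IgG T3, and epithelial markers to 57.3 to 120 and 193 to 600 CPM. Their part in these values was not tested.

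Genes that work with SLC proteins gave a frame for these values. Of 38 such partners and enzymes tested at T0, 15 were higher in HA (39.5%, against 16% of all genes) and 7 lower (18.4%, against 14.4%). With time in HA, 12 of 39 rose (30.8%, against 18.7%) and 4 fell (10.3%, against 15.1%). Atp1b3, a beta subunit of the sodium pump whose gradient drives many SLC cotransporters, fell with time in HA from 1105 to 573 CPM (-0.69 ± 0.17, adjusted p = 0.0033). Glutamine synthetase, Glul, acts on glutamate taken up by glia elsewhere in the nervous system. Glul was lower in HA than in IgG at T0 (7.41 against 39.4 CPM, -2.43 ± 0.40, adjusted p = 0.00049). With time in HA it rose to 31.2 CPM (2.30 ± 0.38, adjusted p = 0.00014). In IgG libraries Glul went from 39.4 to 127 CPM without passing (1.63 ± 0.53, adjusted p = 0.0946). At T3 it was still lower in HA (-1.93 ± 0.48, adjusted p = 0.0082), and its interaction did not pass (0.76 ± 0.67, adjusted p = 0.747).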

How the data were processed

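Deposited UMI counts per gene were used for 12 libraries (6 mice, an anti-HA and an IgG pull-down each). Per the labels and the series' design text, the authors prepared libraries by a bulk variant of MARS-seq, with up to 8 samples per pool, trimmed reads with cutadapt, aligned them to mm10 with STAR 2.4.2a, counted UMIs with HTSeq over windows from 1000 bases upstream to 100 downstream of annotated 3′ ends, and kept genes with at least 5 reads in a sample; DESeq2 1.26.0 is among their tools. Gene coordinates are from GENCODE M21 (mm10).

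From the counts, CPM were computed with library totals. The main test was edgeR 4.0.16 (R 4.3.3), robust quasi-likelihood with TMM scaling and filterByExpr, fitted to all genes of the groups compared (all 12 libraries for the interaction), with Benjamini-Hochberg adjustment over all genes tested and a threshold of 0.05; SE is the absolute log2 fold change over the square root of F. The script was tested on simulated counts. The members, transport classes, gene lists and tests were chosen with earlier results of these data known, so lists are described by counts beside those of all genes, with no list test. Genes were named by rule: up to 8 per direction and comparison with the smallest p, no overlap and a log2 fold change of 1 or more in size; the 10 highest in HA T0; the glial, neuronal and amino acid response lists; and up to 3 per class; further genes were chosen after their values were seen. Pull-downs with the same number come from 1 mouse, and their deviations from group means correlated (r = 0.278 to 0.301 at T0 and 0.107 to 0.170 at T3). Alternatives were RLE and library total scaling, other filters, DESeq2 1.42.0, a joint fit, a replicate block and each library left out. A few items are not reported here.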

Additional observations from a re-analysis of the deposited data

How the results depend on the processing

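Over the genes named, 103 gene comparisons were recomputed in 1330 gene settings: 1188 kept their direction and side of the threshold, 132 were weaker and 10 reversed. The reversals were of HA T3 against HA T0 values that had not passed: Slc12a2 (0.0165 and 0.0728 without HA T3 replicates 3 and 4, with -0.537 to 0.0728 over libraries left out), Slc18a3 (-0.254 with library totals, -0.0155 with DESeq2, and -0.300 to 0.308 over libraries left out), Slc2a3 (-0.0290 with library totals) and Slc1a4 (-0.0995 with library totals, and -0.0152 to 0.295 over libraries left out). For HA against IgG at T3, 14 SLC calls became 31 with no filter, 28 with at least 5 counts in a library, 29 in the joint fit of 12 libraries, and 6 to 25 with 1 library left out. For IgG with time, 6 became 12 in the joint fit and 1 to 8 with 1 library left out. The interaction gave 1 call with DESeq2 in place of 0. The causes were not tested. Counts in HA against IgG at T0 were 45 to 56 and in HA with time 38 to 51 with 1 library left out, against 56 and 54. With the replicate block the counts were 69 (HA against IgG, T0), 18 (T3), 56 (HA with time), 6 (IgG with time) and 0 (interaction); beyond the values given beside the results, the block lost no HA against IgG call of a named gene. Across times, shared numbers belong to different mice, so the blocked counts of 56 and 6 rest on pairing by number alone. Depth limits IgG T3 most, where 3 counts equal 12.1 to 34 CPM.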

Other observations

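A group of 15 SLC genes of lysosomes and endosomes was listed after the values of HA with time had been seen, so its counts are a description without a test. Of 13 tested, 9 were lower in HA T3 than in HA T0, where 15.1% of all genes were, and 1 was higher, and the median log2 fold change was -0.85. Their summed level was 599, 646 and 633 CPM in HA T0 and 316, 309 and 316 CPM in HA T3, against 469, 485 and 454 CPM in IgG T0 and 408, 380 and 270 CPM in IgG T3. CPM are scaled by library totals, with which the median log2 fold change of all genes was -0.29 in HA with time, so the HA sums carry this shift. The lower genes included the sialic acid exporter Slc17a5 (21.9, 21.2 and 34.5 CPM to 13.1, 10.7 and 9.34 CPM; -0.97 ± 0.30, adjusted p = 0.0182, or 0.0864 and 0.0847 without HA T0 and HA T3 replicate 4) and the histidine and peptide transporter Slc15a4 (49.5, 57.6 and 44.6 CPM to 23.7, 20.7 and 25.7 CPM; -0.85 ± 0.24, adjusted p = 0.009). Their HA T3 libraries lay below all HA T0 libraries. The one gene that was higher, the related Slc15a3, went from 4.61, 3.35 and 2.09 CPM to 9, 8.02 and 6.23 CPM (1.46 ± 0.45, adjusted p = 0.017, lost without HA T0 replicate 4 or HA T3 replicate 1 or 3, up to 0.0938), on 24 counts over the T0 libraries. The macrophage marker sum was 667 to 1312 CPM in HA T0 and 395 to 690 CPM in HA T3. Of 7 macrophage and leukocyte SLC genes tested, 4 were lower (Slc7a7, Slc29a3, Slc15a4 and Slc46a3) and 1 was higher (Slc15a3). All of these but Slc7a7 also belong to the lysosome and endosome group. The calls of Slc7a7 and Slc46a3 were lost without single libraries, as given above. The part of macrophage RNA was not tested.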
